A study of Homo sapiens with 16 samples.

Results

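The distance between 4 human bladder cancer (BC) cell lines, 253J, J82, RT112 and TCCSUP, was compared before and after CM-1758, gene by gene and over all genes. The lines were grown with CM-1758, an inhibitor of histone deacetylases, or with the DMSO vehicle, and RNA was sequenced from 2 libraries of each line and treatment after 48 h, 16 libraries in all. For every gene, the standard deviation (SD) of the 4 line means of log2 CPM (counts scaled to a common library total) was computed among the control groups and again among the treated groups, over all 21297 of 35993 gene symbols whose counts were high enough to test. The 4 control groups received DMSO at 0.01% and the 4 treated groups received CM-1758 at the half-maximal inhibitory concentration of that line, so the dose differed between lines and cannot be told apart from the line. TCCSUP was kept in another growth medium (EMEM) than the other 3 lines (DMEM), so medium and line cannot be told apart either. The libraries of a group came from separate biological replicates of a single cell line, and no normal urothelial cells were among them.

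Histone deacetylases take acetyl groups off histone tails, which as a rule goes with compact and silent chromatin. Inhibitors of these enzymes raise acetylation widely, and in many cell types they switch on genes kept silent in that cell while lowering some of the genes that the cell uses most. Cell lines from the same cancer differ mostly in such cell-specific genes, for example those of epithelial junctions, of the mesenchymal matrix or of the interferon response. RT112 is known as an epithelial-like line and J82 and TCCSUP as more mesenchymal-like lines.

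The control libraries held 27655401 to 32537104 counts and the treated libraries 22506431 to 31547585, so the treated groups were on the whole shallower. Libraries of a group correlated at 0.983 to 0.991 (Pearson's r across genes, which are not independent replicates). The median SD between the 2 libraries of a group was 0.124 log2 CPM in control and 0.160 in treated groups, and the 2 J82 control libraries differed the most from each other. Of the uroplakins, defining products of urothelium, UPK1B and UPK3B were high in RT112 alone, UPK1A and UPK2 were low there and UPK3A had no count in any control library. UPK1B stood at 1298 and 1517 CPM in its control libraries, at 1.94 and 0.766 in TCCSUP and at 0 in 253J and J82.

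Treated lines differed less than control lines on the genes that had set them apart. On the many genes on which they had been close, the SD was slightly higher in treated lines. The filter on low counts favoured that second direction. The mean SD over lines fell from 1.13 to 1.04 log2 CPM, while its median went from 0.703 to 0.751. The first quartile went from 0.407 to 0.461 and the upper quartile from 1.47 to 1.37. Genes with an SD of at least 2 numbered 3626 in control and 2661 in treated lines, and those with an SD of at least 4 numbered 718 and 209. At the other end, genes with an SD under 0.5 numbered 7330 in control and 6181 in treated lines. The tested genes include 1082 with at most 3 counts in every control library, which passed the filter only through treated libraries. A low control SD and a higher treated SD were built into them, and in 862 the SD rose by 1 or more. The low end without them was not tested. Of the 718 genes with the widest control spread (4 or more), 94.3% had a lower SD in treated lines, against 25.3% of the 7330 genes under 0.5. Sorting on the control value favours such a pattern, so the genes were also sorted on the treated value. Of the 209 genes with a treated SD of 4 or more, 65.1% still had a higher SD in control, and of the 6181 under 0.5 in treated lines 67.9% did. Between these ends the share was 54.8% of 2452 genes with a treated SD of 2 to 4, but 45.3% of 5223 genes at 1 to 2 and 47.3% of 7232 genes at 0.5 to 1, so in the middle of the range more genes had a higher SD in treated lines.

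**Figure D1:**
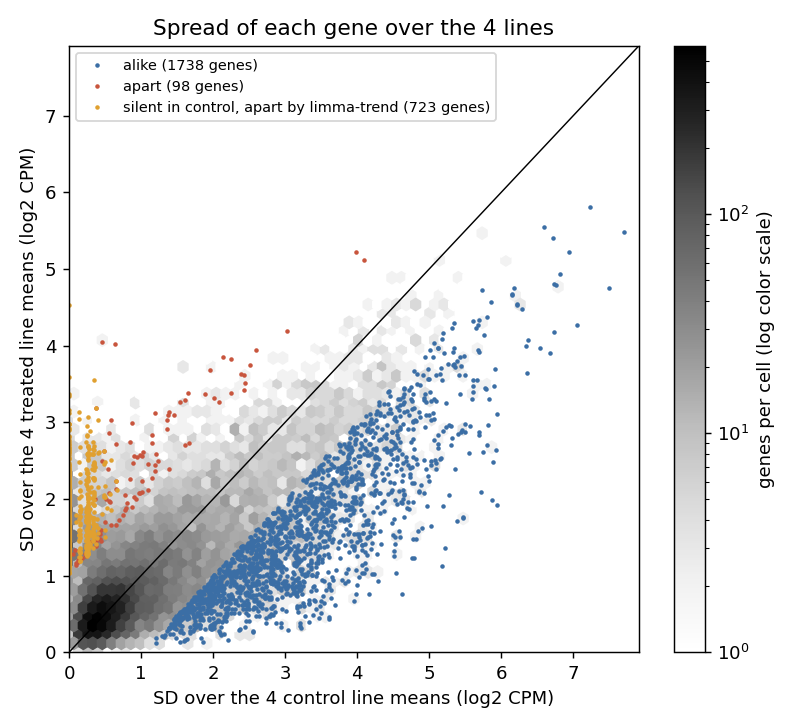
Each gene's SD over the 4 control line means (x axis, log2 CPM) against its SD over the 4 treated line means (y axis, log2 CPM), with the number of genes as grey shade on a log scale and the line of equal spread in black. The 1738 genes called alike lie below the line out to control SDs above 7, the 98 called apart lie above it, and the 723 genes silent in control that limma-trend called apart sit along the left edge.

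For each gene it was then tested whether the effect of CM-1758 differed between the 4 lines (edgeR's quasi-likelihood F test of the interaction, Benjamini-Hochberg adjusted p under 0.01). This held for 7792 genes, 36.6% of those tested, and 5353 of them (68.7%) had a lower SD in treated lines. A gene was called alike with CM-1758 when it passed this test and its SD was at least 1 lower in treated lines, and apart when its SD was at least 1 higher. Alike were 1738 genes (8.16% of those tested) and apart were 98 (0.460%). This imbalance depended on the test. A gene with no count in any control library has no defined fold change, so the count test cannot call lines that part from silence. On log2 CPM, limma-trend, added after the data had been examined, called 1858 genes alike (8.72%) and 1113 apart (5.23%). Of the 1113, 723 had at most 3 counts in every control library and passed the filter on low counts only through treated libraries, so a higher treated SD was built into them and they bear no weight on the balance of calls. Among the 20215 genes above that floor, edgeR called 1738 alike and 95 apart, and limma-trend 1858 and 390. Both tests called 1698 of the alike genes and 97 of the apart genes. With no test at all, the SD was lower by 1 or more for 2061 genes and higher by 1 or more for 1388. Of the 1388, 862 had at most 3 counts in every control library, so their rise was built in. Among the 20215 genes above that floor the counts were 2061 and 526.

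The 6 pairs of lines were compared by the root mean square, over the tested genes, of the difference of their mean log2 CPM. All 6 distances were shorter after CM-1758, and in each pair all 4 distances between single treated libraries lay below all 4 between single control libraries. The distance of RT112 and TCCSUP shortened the most, from 2.29 to 1.78, a ratio of 0.779. The distance of 253J and TCCSUP went from 2.36 to 1.92 (ratio 0.814), that of J82 and RT112 from 2.22 to 1.87 (0.844) and that of 253J and RT112 from 2.42 to 2.06 (0.849). For 253J and J82 it went from 2.21 to 1.97 (0.888). J82 and TCCSUP, the nearest pair in control, changed the least, from 1.84 to 1.73 (0.938), and 253J and RT112 were the farthest pair under both treatments. For scale, the 2 libraries of a group lay 0.516 to 0.689 apart. Each line moved from its own control by 1.33 (J82), 1.51 (253J), 1.52 (RT112) or 1.81 (TCCSUP). The direction for J82 and TCCSUP rested on the measure: by the mean absolute difference, which weighs large gaps less, their ratio was 1.03, while the other 5 pairs stayed under 1, between 0.867 and 0.956.

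**Figure D2:**
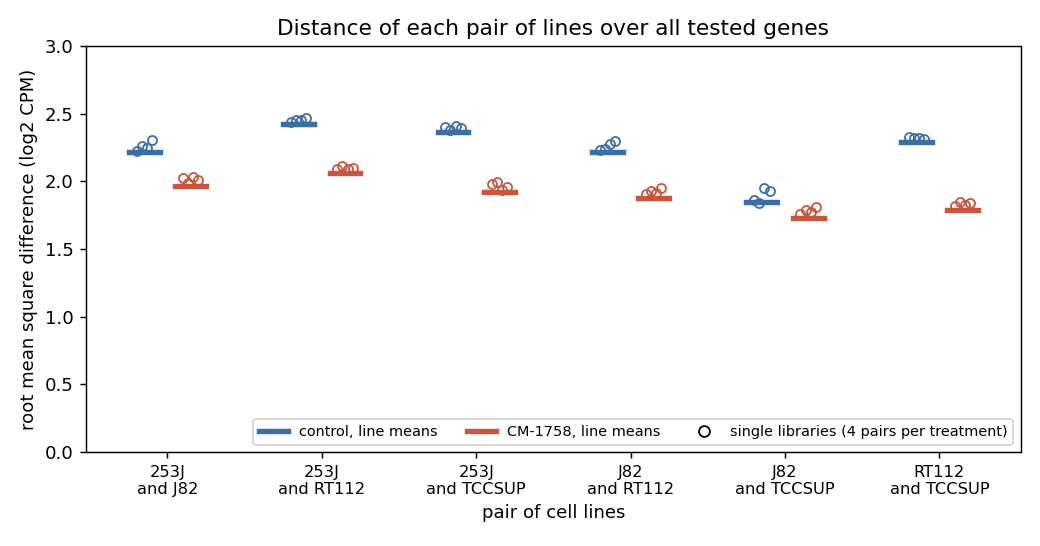
Root mean square difference in log2 CPM (y axis) over 21297 genes for the 6 pairs of lines (x axis), in control (blue) and after CM-1758 (red). Bars give the distance of the line means and circles the 4 distances between single libraries. In every pair the treated circles lie below the control circles, by the most for RT112 and TCCSUP and by the least for J82 and TCCSUP.

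Counts of genes that set 2 lines apart pointed the same way at a wide gap (edgeR, adjusted p under 0.01 and a log2 fold change above 2 in size). For RT112 and TCCSUP they fell from 4265 genes (20.0% of those tested) in control to 3193 (15.0%) in treated lines. For 253J and TCCSUP they fell from 4176 (19.6%) to 3478 (16.3%), and for J82 and RT112 from 4106 (19.3%) to 3577 (16.8%). The pair 253J and RT112 went from 4411 (20.7%) to 4073 (19.1%), 253J and J82 from 3940 (18.5%) to 3680 (17.3%), and J82 and TCCSUP from 3092 (14.5%) to 3047 (14.3%). In these last 3 pairs the order turned when any 1 of the pair's 4 control libraries was left out, and for J82 and TCCSUP it turned also with all libraries thinned to the same depth (2983 and 3048) and with library size alone as the scaling (3095 and 3203). Between 49.1% (RT112 and TCCSUP) and 58.3% (J82 and RT112) of the genes apart in control were still apart in the same direction in treated lines. At a narrower gap (adjusted p under 0.05 and a log2 fold change above 1) the order turned: more genes were apart in treated than in control lines in 4 of the 6 pairs, for example 6947 against 6354 for J82 and TCCSUP and 8425 against 7821 for 253J and RT112.

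The change of each gap was also tested directly (edgeR interaction of 2 lines and treatment, adjusted p under 0.01, a change above 1 log2 CPM). In each pair more gaps of a kept direction narrowed than widened. For RT112 and TCCSUP 1734 gaps narrowed (8.14%) and 287 widened (1.35%), for 253J and TCCSUP 1627 (7.64%) and 315 (1.48%), and for 253J and RT112 1562 (7.33%) and 551 (2.59%). The pair 253J and J82 had 1444 narrowed (6.78%) and 411 widened (1.93%), J82 and RT112 1362 (6.40%) and 204 (0.958%), and J82 and TCCSUP 1043 (4.90%) and 259 (1.22%). Other genes changed the sign of the gap, 794 (J82 and RT112) to 1585 (253J and J82) per pair, of 21297 tested. Limma-trend, which can read gaps that open from silence, gave 510 to 964 widened gaps per pair, of the same number tested. Genes silent in every control library passed the filter on low counts only through treated libraries. A wider treated gap was thus favoured in them, and these counts bear no weight on the balance.

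Among genes whose libraries agreed within 1 log2 unit in every group, the 8 with the largest fall of the SD were off or low in 1 or 2 control lines and came up there in treated libraries. FREM2, an extracellular matrix protein of the Fraser complex, had the largest fall, from 5.17 to 1.13 (interaction adjusted p = 5.68e-09, edgeR). Control libraries held 94.8 and 100.4 CPM in 253J, 8.36 and 8.25 in J82 and no count at all in RT112 and TCCSUP, and treated libraries 66.4 and 90.2, 107 and 99.8, 41.4 and 46.3 and 19.02 and 16.1 in the same order. The value printed for a line without counts, -3.77 log2 CPM, is set by the prior count of 2, so such an SD depends on that prior.

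MAP1B, a microtubule-associated protein best known from neurons, was nearly absent from RT112 alone. It stood at 0.131 and 0.0678 CPM in control RT112 against 149 and 131 in 253J, 413 and 246 in J82 and 629 and 626 in TCCSUP. In treated RT112 it rose to 23.8 and 25.3 CPM, and in treated TCCSUP it fell by 0.96 ± 0.24 on the log2 scale (SE, 2 against 2 libraries) to 277 and 369. Its SD went from 5.47 to 1.75.

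A like pattern with RT112 as the low line was seen for TENM3, a teneurin of neuronal adhesion, for CCBE1, a secreted factor of lymphatic growth, and for BICC1, an RNA-binding protein. TENM3 had no count in control RT112 and 3.40 and 4.50 CPM in treated RT112, while it fell by 1.34 ± 0.24 in 253J and by 1.39 in TCCSUP on the log2 scale. CCBE1 went from 0.0654 and 0 to 4.73 and 5.80 CPM in RT112 and from 122 and 116 to 24.9 and 33.8 in TCCSUP, moving toward each other from both sides. BICC1 was low in RT112 and TCCSUP, at 0.0654 and 0 and 0.791 and 0.689 CPM, and reached 7.55 and 7.67 and 7.90 and 9.92, while in 253J it fell by 1.30 ± 0.17. UGT8, an enzyme of galactolipid synthesis, was also low in RT112 and TCCSUP, and its treated libraries ranged only from 10.2 CPM in RT112 to 39.0 in 253J.

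ZNF347 and ZNF320, zinc finger genes, were silent in 253J alone. For ZNF347 the 253J libraries went from 0 counts to 10.7 and 12.5 CPM, while J82, RT112 and TCCSUP libraries lay between 33.6 and 169 CPM in control and between 41.0 and 185 in treated groups, and none of the 3 passed an adjusted p of 0.05. ZNF320 went from 0 counts to 6.85 and 6.41 CPM in 253J, and its other lines changed by at most 0.22 on the log2 scale. These genes have close relatives in their family, so reads shared with a paralog could not be told apart.

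**Figure D3:**
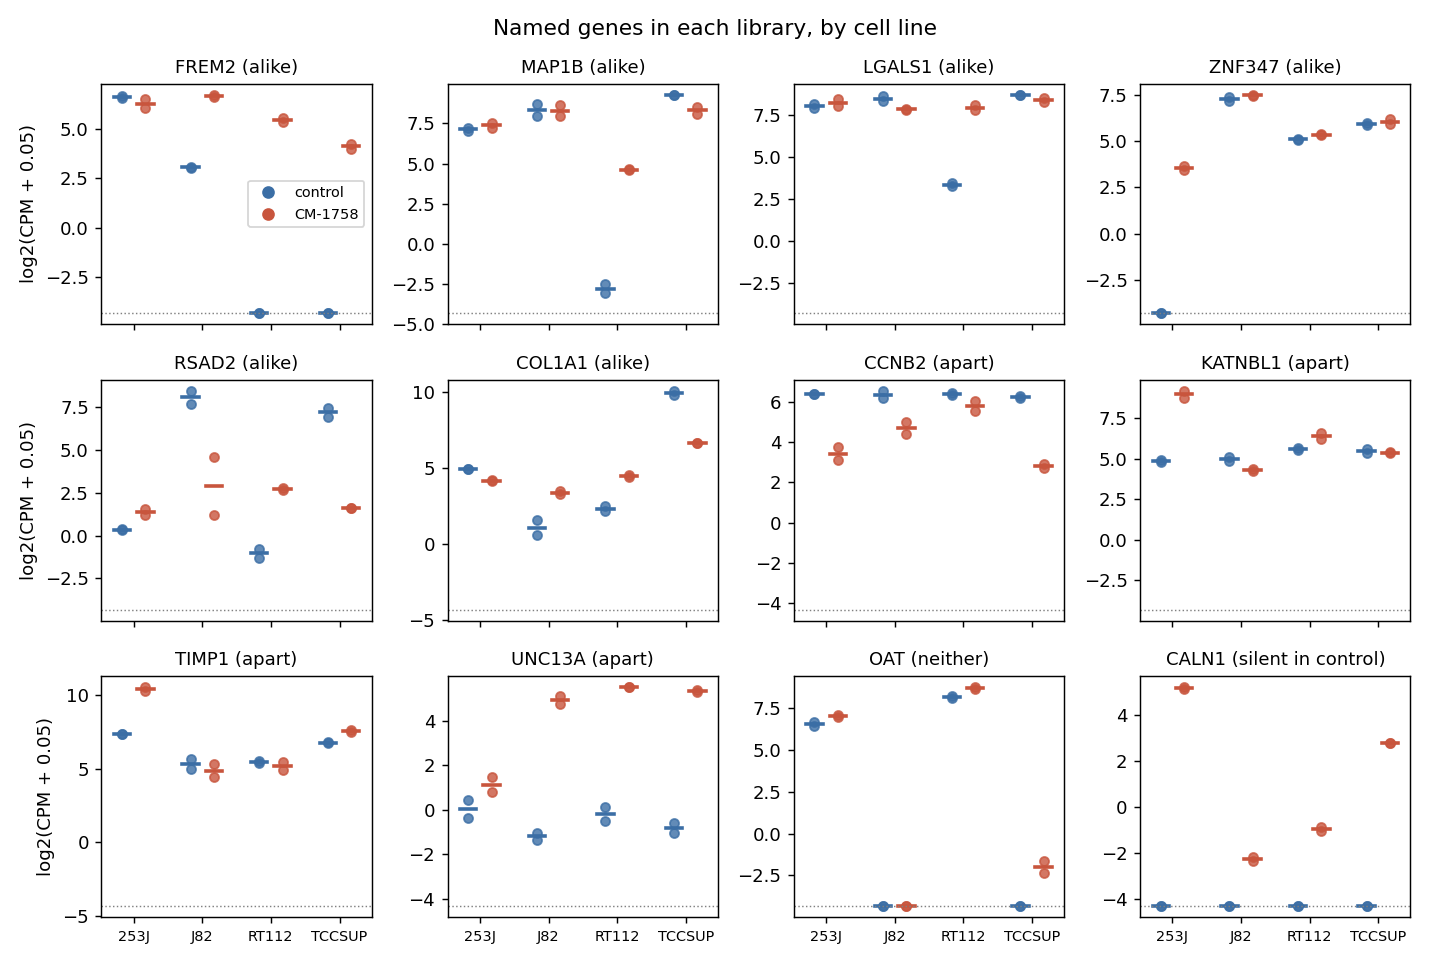
Log2(CPM + 0.05) (y axis) in each library by cell line (x axis) for 12 named genes, control in blue and CM-1758 in red, with bars at the means of 2 libraries and a dotted line at a count of 0. FREM2, MAP1B, LGALS1 and ZNF347 were brought up in the lines that lacked them, and RSAD2 and COL1A1 narrowed from both sides. CCNB2, KATNBL1 and UNC13A opened from a similar level, and TIMP1 opened further from unequal control levels. OAT kept its gap and CALN1 opened from silence.

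Over the 1738 alike genes, the low line did most of the moving. The line lowest in control rose by a median of 3.07 log2 CPM and the line highest in control changed by a median of -0.79. In 803 genes (46.2%) only the lowest line rose, in 720 (41.4%) the highest fell as well, in 204 (11.7%) only the highest fell, and 11 showed neither (edgeR, adjusted p under 0.05 in the line). Over all tested genes these shares were 30.01%, 7.16% and 23.8%, and the median changes of the lowest and highest line were 0.43 and -0.18. Since a call needed a lower SD, a closing direction was built into the choice of these genes. The lowest line was off in control (at most 3 counts in both libraries) in 902 of them (51.9%, against 31.4% of all tested genes), and in 733 of these it was on in treated libraries. In 485 alike genes all 8 groups averaged at least 10 counts, so their values did not rest on an empty group. The line farthest from the other 3 in control was 253J or RT112 in 545 genes each (31.4%), TCCSUP in 420 (24.2%) and J82 in 228 (13.1%). Over all tested genes the shares were 31.1% for 253J, 25.6% for RT112, 21.5% for TCCSUP and 21.8% for J82, so the count of 253J was that of the background.

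Genes of cell identity were among those that lay farthest apart in control lines. Of 31 tested mesenchymal and EMT genes, 21 were alike and none apart, and their median SD went from 3.42 to 1.83. Collagens had 10 of 20 alike and none apart (3.55 to 2.33), and epithelial junction and polarity genes 7 of 30 alike and none apart (3.48 to 2.28). Over all tested genes the shares were 8.16% and 0.460%, and the median SD went from 0.703 to 0.751. Lists that start with a wide spread have more room to lose, so these counts describe the lists and do not set them apart.

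**Figure D4:**
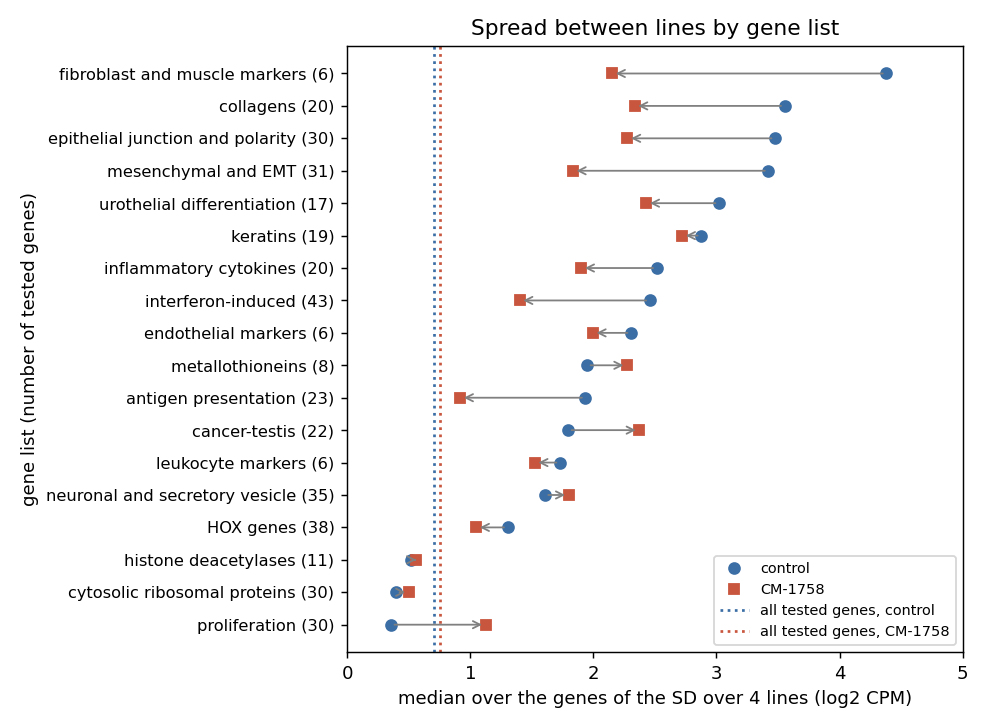
Median over the genes of a list of the SD over 4 lines (x axis, log2 CPM), in control (circles) and after CM-1758 (squares), for 18 lists with their number of tested genes (y axis). Arrows run from control to treated, and dotted lines give the medians over all tested genes. Mesenchymal, collagen, interferon and antigen presentation genes moved left, and proliferation genes moved right from the lowest control value of any list.

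The mesenchymal genes were high in TCCSUP and low in RT112, and the drug moved these lines in opposite directions. In TCCSUP 19 of the 31 genes fell and 4 rose, and in RT112 18 rose and 2 fell (edgeR, adjusted p under 0.05 in the line). Of all tested genes 22.1% fell and 32.0% rose in TCCSUP, and 27.4% rose and 20.2% fell in RT112. SPARC, a matrix glycoprotein, fell by 3.62 ± 0.22 in TCCSUP, from 2535 and 2300.1 CPM to 212 and 180.4, and in 253J it fell by 2.91 ± 0.21, from 3606 and 3373 to 478 and 448. RT112 had no SPARC count in control and 1.06 and 0.534 CPM when treated. POSTN, another matrix protein, fell in TCCSUP from 866 and 934 to 25.98 and 30.02 CPM. VCAN, a matrix proteoglycan, fell there from 329.6 and 259.6 to 34.2 and 37.9 CPM. All 3 kept a treated SD of 3.64 or more, so the gap was shortened and not closed.

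LGALS1, the lectin galectin-1, closed almost fully, from an SD of 2.55 to 0.26. It stood at 10.9 and 9.52 CPM in control RT112 and between 245 and 427 CPM in every other control library, and treated RT112 reached 272 and 225, beside 229.5 to 375 in the other treated libraries. VIM, the intermediate filament vimentin, was looked up after its values were known: RT112 went from 0.719 and 0.169 to 10.6 and 6.37 CPM and TCCSUP from 3.96 and 3.75 to 14.5 and 14.8, while 253J stayed at 1429.6 and 1286.

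Among the named collagens, the spread of 3 narrowed by a fall in TCCSUP and that of 1 by a fall in RT112. COL1A2 kept a treated SD of 5.48 and COL5A2 one of 2.87. COL1A1, the main chain of type I collagen, fell by 3.32 ± 0.20 in TCCSUP, from 896 and 1080.0 CPM to 100.3 and 97.9, and rose by 2.18 ± 0.21 in RT112, from 4.45 and 5.49 to 23.7 and 21.3. COL5A2 fell in TCCSUP from 4880.0 and 4848 to 221 and 165 CPM and rose in 253J and RT112. COL1A2 fell in TCCSUP from 5058 and 5349 to 273 and 239.8 CPM but stayed under 1 CPM in 253J and RT112. COL17A1, the hemidesmosomal collagen of epithelia, was instead high in RT112 and fell there from 207 and 184 to 7.005 and 24.3 CPM.

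Among the junction genes, TJP3, a tight junction scaffold, rose in all 4 lines and most in those that lacked it: from 0.0791 and 0 to 13.6 and 8.38 CPM in TCCSUP and from 0.152 and 0 to 10.5 and 13.000 in J82, against 21.7 and 22.03 to 108 and 79.7 in RT112. MYO5B, a motor of apical transport, rose by 4.36 ± 0.32 in J82 and rose by 2.75 ± 0.24 in TCCSUP, and RT112 changed by -0.17 ± 0.21. DSC2, a desmosomal cadherin, had no count in control TCCSUP and 1.27 and 1.53 CPM in treated TCCSUP, and it fell by 2.22 ± 0.28 in 253J. CDH3 (P-cadherin) rose by 3.01 ± 0.34 in J82 and fell by 2.42 ± 0.25 in TCCSUP. Of the 30 genes 23 had a lower SD in treated lines and 20 passed the interaction test, but 23 were called neither way, CDH1 (E-cadherin, SD 3.16 to 2.68) and EPCAM (3.86 to 3.34) among them. CDH1 nonetheless changed in 3 lines: it fell by 2.80 ± 0.22 in 253J and rose by 2.77 ± 0.24 in J82, so that these 2 lines ended at about the same level, 23.4 and 28.8 and 25.1 and 27.2 CPM.

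Urothelial genes and keratins were called less evenly. Of 17 urothelial genes 6 were alike and none apart by edgeR (median SD 3.02 to 2.43), and of 19 keratins 2 were alike and 1 was apart (2.88 to 2.72). The alike shares were 35.3% and 10.5%, against 8.16% of all tested genes. UPK1B fell in RT112 from 1298 and 1517 to 345 and 359 CPM, UPK3B from 67.3 and 79.4 to 22.8 and 25.7, and UPK1A from 4.87 and 5.22 to 0.274 and 0.229. FGFR3, a growth factor receptor often active in BC, narrowed from both sides: it fell by 1.01 ± 0.15 in RT112 and rose by 2.02 ± 0.16 in J82 and rose by 3.56 ± 0.19 in TCCSUP. KRT4 fell in RT112 from 201 and 209.9 to 61.4 and 68.5 CPM and KRT81 in TCCSUP from 270.2 and 249 to 90.999 and 80.7. The call of KRT81 was lost in 11 of the 16 fits that left out 1 library (edgeR adjusted p of 0.0113 to 0.0401), with SD changes of -1.67 to -1.24. UPK1B lost its call without J82 control replicate 1 or 3 or J82 CM-1758 replicate 3 (SD change -1.30 to -1.19). KRT18, the simple epithelial keratin, was the member that parted (SD 0.69 to 1.72): it fell in 253J, from 2796 and 1858 to 866 and 667 CPM, and in TCCSUP, from 900.1 and 1039 to 188 and 138, and rose in J82, from 1556 and 2134 to 2753 and 3059. Its SD change came to 0.92 to 0.98, under the limit, without 253J control replicate 3, J82 control replicate 1 or TCCSUP CM-1758 replicate 2.

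Interferon-induced genes converged by loss in the lines that expressed them. J82 and TCCSUP held the high control levels, with a summed level over the 43 genes of 16047 to 19369.6 CPM in J82 and 4180.5 to 4862 in TCCSUP, against 1021 to 1342 in 253J and RT112. All 43 genes fell in J82 and 42 fell in TCCSUP, while 14 rose and 11 fell in RT112, and 8 rose and 16 fell in 253J. Of all tested genes 18.5% fell in J82 and 22.1% in TCCSUP, 27.4% rose and 20.2% fell in RT112, and 28.8% rose and 22.4% fell in 253J. The treated sums ranged from 975 to 3806 CPM over all 8 libraries. Of the 43 genes 21 were alike (48.8%, against 8.16% of all tested genes) and none apart. Their median SD went from 2.46 to 1.40.

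RSAD2, the antiviral enzyme viperin, showed this in full (SD 4.62 to 0.77, interaction adjusted p = 1.12e-05, edgeR). It fell in TCCSUP from 176 and 122 to 3.07 and 2.95 CPM and in J82 from 350.4 and 209.8 to 24.1 and 2.27, and rose in RT112 from 0.360 and 0.542 to 6.18 and 6.90. The 2 treated J82 libraries lay far apart, so its treated level in J82 is loosely known. OAS2, which makes the signal for RNase L, fell in J82 from 372 and 275 to 18.04 and 3.42 CPM and in TCCSUP from 52.8 and 42.1 to 1.09 and 1.14. BST2 (tetherin) fell by 1.56 ± 0.22 in J82 and rose by 1.94 ± 0.23 in RT112. IFI44L fell in J82 from 366 and 369.8 to 44.4 and 13.5 CPM and in TCCSUP from 103 and 71.1 to 1.35 and 2.40. OAS2 lost its call without 253J CM-1758 replicate 1 (SD change -2.73, edgeR adjusted p = 0.0225) and IFI44L without replicate 3 of that group (-2.51, edgeR adjusted p = 0.0128), and both also with the replicate number within each line as a block (edgeR adjusted p = 0.0224 and 0.0245).

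Antigen presentation genes followed, with 7 of 23 alike (30.4%, against 8.16% of all tested genes) and none apart. Their median SD went from 1.94 to 0.918. NLRC5, the activator of class I genes, moved toward a common level from both sides: it fell by 2.10 ± 0.30 in J82 and fell by 1.56 ± 0.29 in TCCSUP and rose by 2.69 ± 0.37 in RT112. HLA-F, a class I gene, rose by 5.23 ± 0.48 in RT112, from 0.327 and 0.542 to 16.8 and 16.1 CPM, and fell by 1.07 ± 0.31 in J82. HLA-DRB1, a class II chain, was at 0 counts in control RT112 and TCCSUP and reached 1.96 and 2.02 and 2.32 and 2.64 CPM there, against 26.7 and 29.5 in 253J. HLA genes are so alike and variable that reads can be assigned to the wrong member. PDCD1LG2 (PD-L2) fell in TCCSUP from 38.5 and 33.9 to 0.374 and 1.10 CPM, and lost its call without RT112 CM-1758 replicate 2 or any 1 of the 4 TCCSUP libraries (SD change -1.88 to -1.80, edgeR adjusted p of 0.0123 to 0.0400). CD274 (PD-L1), its relative, was called neither way (SD 2.23 to 1.61). It rose by 2.98 ± 0.18 in RT112, from 2.35 and 3.25 to 20.3 and 23.9 CPM. In J82, the line already highest, it rose by 0.88 ± 0.15, and in 253J by 0.47 ± 0.17. TCCSUP changed by -0.08 ± 0.15.

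Proliferation genes were the reverse case. In control lines they were almost equal, with a median SD of 0.355 over 30 genes, the lowest of the 18 lists, and after CM-1758 it was 1.13. The SD was higher in treated lines for 28 of the 30, 7 were called apart (23.3%) and none alike, and 27 passed the interaction test. Of all tested genes 0.460% were apart and 36.6% passed that test. The lines lost them to different degrees: the median log2 fold change over the list was -2.40 in 253J, -2.17 in TCCSUP, -1.13 in J82 and -0.36 in RT112. In 253J and J82 29 of the 30 genes fell, in TCCSUP 25 and in RT112 11, where 22.4% (253J), 18.5% (J82), 22.1% (TCCSUP) and 20.2% (RT112) of all tested genes fell.

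**Figure D5:**
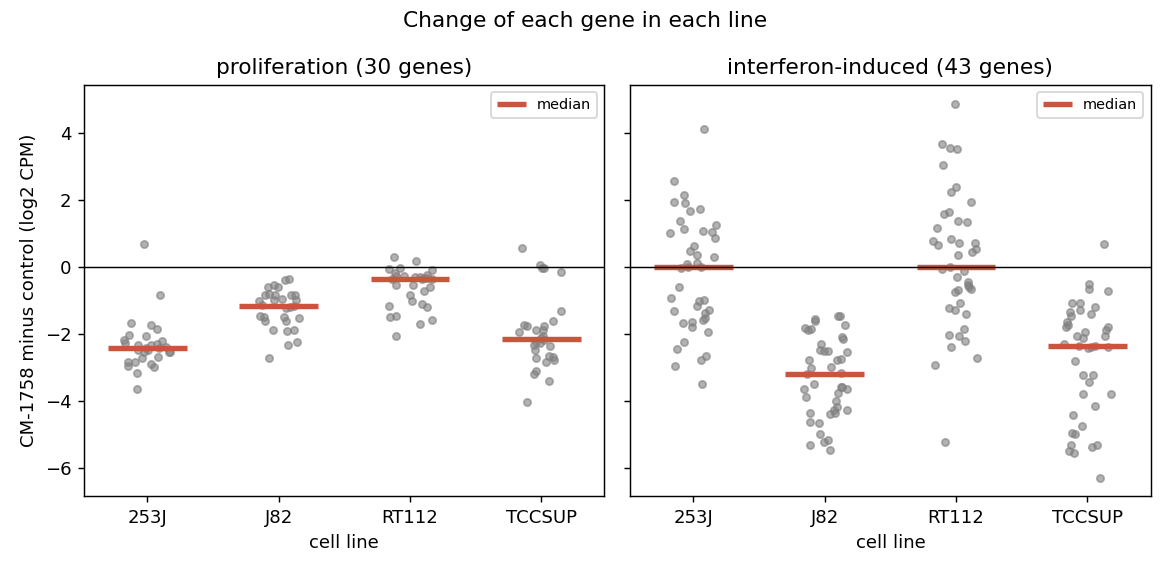
Change of mean log2 CPM with CM-1758 (y axis) in each cell line (x axis) for the 30 proliferation genes and the 43 interferon-induced genes, each point a gene and each red bar the median. Proliferation genes lie lowest in 253J and TCCSUP and near 0 in RT112, whereas interferon-induced genes lie below 0 in J82 and, but for 1 gene, in TCCSUP.

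CENPF, a kinetochore protein of dividing cells, was within 697 and 829 CPM in all 8 control libraries (SD 0.05). It fell by 3.17 ± 0.22 in 253J, to 85.7 and 88.99 CPM, fell by 2.25 ± 0.21 in TCCSUP, to 141 and 181, and fell by 0.94 ± 0.20 in J82, to 473 and 282, while RT112 stayed at 669 and 645 (change -0.24 ± 0.20). CCNB2 (cyclin B2) was within 71.4 and 92.7 CPM in all control libraries and fell to 6.48 and 7.44 CPM in TCCSUP, 13.2 and 8.44 in 253J, 32.2 and 21.3 in J82 and 65.3 and 46.1 in RT112, an SD of 0.08 that became 1.33. PLK1, the mitotic kinase, fell to 3.96 and 2.60 CPM in 253J from 25.6 and 23.6. In TCCSUP it fell by 3.13 ± 0.31, and RT112 changed by -0.34 ± 0.27. KIF2C, a microtubule depolymerase of mitosis, went from an SD of 0.22 to 1.29. KIF2C fell by 2.96 ± 0.28 in 253J, 2.70 ± 0.27 in TCCSUP and 1.44 ± 0.26 in J82, and RT112 changed by -0.53 ± 0.25. The rise of its SD was 0.96 and 0.97, under the limit, without 253J CM-1758 replicate 3 and J82 control replicate 1.

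The list was not uniform. E2F1, MCM2 and MCM5, which act at the start of DNA replication, were noticed only after their values were seen. MCM5 fell by 2.07 ± 0.16 in RT112, from 219 and 202 to 53.3 and 46.9 CPM, and changed by -0.05 ± 0.16 in TCCSUP, the converse of the mitotic genes in those lines. E2F1 fell by 1.60 ± 0.20 in RT112 and changed by 0.04 ± 0.20 in TCCSUP. MCM2 fell by 1.72 ± 0.18 in RT112 and rose by 0.54 ± 0.17 in TCCSUP.

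Promoters of mitotic genes are known for paired CCAAT boxes and for the cell cycle homology region (CHR) element, so the 150 bases before the start of the 4 named genes are shown. The sequences are those of RefSeq for GRCh38.p14, on the plus strand, at chr15:59104996-59105145 for CCNB2, chr1:214603045-214603194 for CENPF, chr16:23678739-23678888 for PLK1 and chr1:44739687-44739836 for KIF2C. Capitals mark CCAAT or its reverse complement ATTGG, and the CHR letters TTTGAA or TTCAAA, which do not overlap here.
CCNB2: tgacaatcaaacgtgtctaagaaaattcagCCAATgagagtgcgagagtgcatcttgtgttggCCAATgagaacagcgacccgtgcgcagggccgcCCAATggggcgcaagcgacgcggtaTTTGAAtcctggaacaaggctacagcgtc
CENPF: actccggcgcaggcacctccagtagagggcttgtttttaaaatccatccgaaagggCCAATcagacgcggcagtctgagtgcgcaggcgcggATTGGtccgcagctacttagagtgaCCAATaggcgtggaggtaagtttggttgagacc
PLK1: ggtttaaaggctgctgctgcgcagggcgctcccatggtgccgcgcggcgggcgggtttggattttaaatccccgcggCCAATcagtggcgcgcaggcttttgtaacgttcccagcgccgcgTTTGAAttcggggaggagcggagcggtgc
KIF2C: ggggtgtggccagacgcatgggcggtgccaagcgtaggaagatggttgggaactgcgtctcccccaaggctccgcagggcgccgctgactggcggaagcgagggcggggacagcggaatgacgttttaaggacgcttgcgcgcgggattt
CCNB2 held 3 CCAAT boxes and 1 CHR, CENPF 3 CCAAT boxes, PLK1 1 of each, and KIF2C neither in this stretch. Within the full window of 250 bases before to 50 after the start, on both strands, CCAAT was found in 17 of 24 proliferation genes that had an entry (70.8%) against 35.7% of all 27305 promoters of the table and 36.7% of those of tested genes, and the CHR letters in 10 of 24 (41.7%) against 15.4% and 10.8%. Only 67.0% of tested genes and 80.0% of the list had an entry, so these shares are not compared further. These 2 motifs were chosen with the results known, and a match describes letters only.

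Among the apart genes 253J was the line farthest from the rest in treated lines for 47 of 98 (48.0%), against 27.7% of all tested genes. KATNBL1, a regulator of the microtubule-severing katanin, stood between 27.7 and 50.8 CPM in all control libraries (SD 0.37) and rose in 253J to 431 and 580.5 CPM, a change of 4.14 ± 0.19, whereas it fell by 0.71 ± 0.17 in J82. Its SD reached 2.00 (interaction adjusted p = 1.55e-08, edgeR). TIMP1, an inhibitor of matrix metalloproteinases, rose in 253J from 162 and 165 to 1248 and 1499.5 CPM, with RT112 at 30.1 and 44.3. MIRLET7BHG, the host transcript of let-7 microRNAs, fell in 253J only among the 4 lines, from 7.06 and 7.01 to 0.832 and 0.540 CPM. CRACR2B, a calcium channel regulator, rose by 2.06 ± 0.33 in 253J and fell in the other 3 lines.

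UNC13A, a protein of synaptic vesicle release, parted by the opposite route. All 8 control libraries lay between 0.342 and 1.30 CPM, and J82, RT112 and TCCSUP rose to between 27.1 and 45.2 CPM while 253J reached 1.66 and 2.70. ATP6V1C2, a proton pump subunit, rose in RT112 and TCCSUP, to 8.18 and 10.4 and 8.12 and 7.95 CPM, while it fell by 0.88 ± 0.29 in 253J and J82 changed by -0.73 ± 0.36. SFRP1, a secreted Wnt antagonist, was apart in control already (SD 3.99) and more so when treated (5.22): J82 rose from 39.5 and 34.8 to 279.9 and 289 CPM and RT112 from 1.47 and 1.59 to 32.3 and 32.5, with 253J at 0 counts in 3 of its 4 libraries.

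Among single pairs, the gap of ITGB6, an integrin chain of epithelia, between 253J and J82 narrowed from 10.97 to 2.88 log2 CPM, since it fell in 253J from 143 and 153 to 13.8 and 12.05 CPM and came up in J82 from 0 counts to 1.65 and 1.73. TM4SF18, a tetraspan membrane protein, narrowed between J82 and TCCSUP, as it fell in TCCSUP from 33.4 and 29.5 to 0.861 and 1.65 CPM and J82 went from 0 counts to 0.501 and 0.372. Gaps that widened were those of OLR1, a scavenger receptor, between J82 and TCCSUP (0.81 to 5.49), where TCCSUP fell from 336 and 380.4 to 13.9 and 12.6 CPM and J82 stood at 806 and 446, and of DUSP2, a phosphatase of MAP kinases, between RT112 and TCCSUP, where RT112 fell to 0.470 and 0.877 and TCCSUP rose to 14.000 and 16.5. The SD of DUSP2 over all 4 lines passed the limit only without RT112 CM-1758 replicate 2 (1.01) among the fits that left out a library. TCN1, a vitamin B12 carrier, rose in RT112 from 1.05 and 1.69 to 29.7 and 36.1 CPM and in TCCSUP to 18.8 and 24.1, and fell in 253J to 0.555 and 0.337. MAMDC2 had lines that exchanged their places: it fell in 253J from 808 and 580.3 to 89.2 and 85.1 CPM and rose in J82 from 9.27 and 9.60 to 351 and 452, so that its SD barely moved (3.48 to 3.43). H2BP2, a histone pseudogene whose reads may come from near-identical copies, widened between 253J and J82.

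Lines also parted from a shared silence. Of the 1082 tested genes with at most 3 counts in every control library, limma-trend called 723 apart, and these genes passed the filter on low counts only through treated libraries, so a higher treated spread was built in. Of the 723, 345 were on (more than 3 counts in both libraries) in 1 line, 202 in 2, 133 in 3 and 43 in all 4 lines, at different levels. TCCSUP had 544 of them on (75.2%), 253J 343 (47.4%), RT112 289 (40.0%) and J82 144 (19.9%), close to the shares of all 1082 silent genes (73.3%, 49.2%, 43.4% and 24.5%), and 198 were on in TCCSUP alone against 94 in 253J, 41 in RT112 and 12 in J82 alone.

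The following examples were chosen after their values were seen. CALN1, a neuronal calcium-binding protein, had no count in any control library and reached 34.7 and 36.8 CPM in 253J, 6.78 and 6.73 in TCCSUP, 0.430 and 0.496 in RT112 and 0.143 and 0.169 in J82. STK32B, a kinase gene, was found at 4.24 and 6.07 CPM in treated 253J and 2.43 and 1.93 in TCCSUP, and C13orf42 at 5.82 and 5.80 in 253J, with RT112 and J82 at or near 0. TDRD9, a germ cell helicase, and TUBA3E, a testis tubulin with close paralogs, were led by TCCSUP, at 9.73 and 9.56 and 10.4 and 9.88 CPM. CHGA (chromogranin A) came on in TCCSUP, at 4.45 and 3.58 CPM, and in RT112, at 2.50 and 1.22, and had no count in any 253J or J82 library.

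Neuronal and germ line genes were called apart more often by limma-trend than by edgeR. Of 35 neuronal and secretory vesicle genes, 30 rose in RT112, where 27.4% of all tested genes rose, 28 in TCCSUP (32.0%), 23 in 253J (28.8%) and 22 in J82 (24.0%). EdgeR called 7 alike (20%) and 1 apart (2.86%), against 8.16% and 0.460% of all tested genes. Limma-trend called 7 alike and 11 apart, and 8 of the 11 were silent in all control libraries. Its shares of all tested genes were 8.72% and 5.23%. The median SD went from 1.60 to 1.80, while 17 members had a lower and 18 a higher SD in treated lines. Of the 35, 8 were silent in every control library, so a higher treated SD was built into them. SCG2 (secretogranin) narrowed from below, with RT112 going from 0.262 and 0.237 to 9.12 and 7.63 CPM and TCCSUP remaining at 149 and 140.4. STMN3 narrowed through J82, which went from 0.228 and 0.182 to 6.66 and 7.65 CPM, and NRXN3 through 253J and RT112, each from at most 0.230 CPM. INA, an intermediate filament of neurons, was the edgeR call in the other direction (SD 3.02 to 4.19), with 253J near 0 and the other lines up.

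Of 22 cancer-testis genes edgeR called 2 alike (9.09%, near the 8.16% of all tested genes) and none apart. Limma-trend called 2 alike and 6 apart, and 4 of the 6 were silent in all control libraries. The median SD went from 1.79 to 2.37, while 11 members had a lower and 11 a higher SD in treated lines. Of the 22, 5 were silent in every control library, so a higher treated SD was built into them. MAGEC2 was a TCCSUP gene in control, at 56.7 and 68.96 CPM, and rose in RT112 to 8.69 and 6.86 and in J82 to 7.38 and 3.35. SSX1 was at 9.89 and 10.6 CPM in control TCCSUP with no count in the other 3 lines, and came on in each of these at 0.641 to 2.84 CPM.

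HOX genes, inflammatory cytokines, metallothioneins, histone deacetylases and ribosomal proteins had few members called by edgeR. Alike were 7.89% of HOX genes, 10% of inflammatory cytokines, 12.5% of metallothioneins and 9.09% of histone deacetylases. These shares lay close to the 8.16% of all tested genes, so the genes named here are single examples. HOX genes had 3 of 38 alike and none apart (1.30 to 1.05): HOXB2 fell in 253J from 31.8 and 33.3 to 6.02 and 3.71 CPM, HOXC13 rose in 253J from 0.290 and 0.306 to 2.57 and 2.77, and HOXB9 fell in TCCSUP from 12.3 and 13.2 to 3.67 and 4.21. Of 20 inflammatory cytokines 2 were alike, CCL20, which rose in all 4 lines and reached 6.22 and 6.94 CPM in RT112 from near 0, and IL32, which rose in RT112, and limma-trend called CXCL5 and TNF apart. IL32 lost its call in 12 of the 16 fits that left out 1 library (SD change -1.12 to -0.64) and CCL20 without 253J CM-1758 replicate 1 or J82 CM-1758 replicate 1 (-1.17 and -0.90). Of 8 metallothioneins MT2A was alike, its RT112 level going from 1.83 and 2.30 to 94.6 and 65.7 CPM, and limma-trend called MT1A, MT1E, MT1G and MT1H apart, 2 of them silent in control, family members with similar sequences. The median SD of the 8 went from 1.95 to 2.27, with 3 lower and 5 higher in treated lines, and in the 2 silent genes a rise was built in. Of 11 histone deacetylase genes HDAC9 alone was alike, rising in RT112 from 0.752 and 0.474 to 12.6 and 12.7 CPM toward 65.3 and 59.3 in 253J, and the list's median SD was 0.521 in control and 0.561 in treated lines. None of 30 cytosolic ribosomal protein genes was called either way (0.396 to 0.502).

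Some gaps did not yield to the drug. OAT, ornithine aminotransferase, had no count in any J82 library and at most 0.275 CPM in TCCSUP under either treatment, against 127 and 141 CPM in treated 253J and 439 and 405 in treated RT112 (SD 6.47 to 6.26). KRT17, a basal keratin, stayed at 1096 and 1338 CPM in RT112 and at or near 0 in 253J (5.82 to 5.71). ADGRF1, an adhesion receptor, stayed an RT112 gene, at 279 and 342 CPM with J82 at 0 counts. SERPINB2, a plasminogen activator inhibitor, rose in TCCSUP from 85.1 and 109 to 427 and 427 CPM and in the low lines as well, so the SD went only from 5.14 to 5.10. In 118 of 21297 tested genes at least 1 line had at most 3 counts in all 4 of its libraries while another line averaged a log2 CPM of 5 or more. 253J was the silent line in 81 of them, RT112 in 32, J82 in 26 and TCCSUP in 8, and a gene could have more than 1 silent line.

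Markers of cells that a pure line should lack were low for leukocytes. Those of fibroblasts were high in TCCSUP and, through LUM alone, in RT112. The summed level of 10 leukocyte markers was 0.621 to 21.4 CPM in control and 4.32 to 23.9 in treated libraries, the other markers than the 6 tested being too low to test, and 3 of the 6 were alike (PTPRC, CD14 and ITGAM), PTPRC falling in TCCSUP from 8.63 and 10.5 to 0.973 and 1.26 CPM. Limma-trend called CD3D, at 0 in all TCCSUP control libraries and 2.88 and 2.40 CPM in treated ones, and CSF1R apart. The 6 endothelial markers summed to 2.79 to 227 CPM in control and 3.33 to 20.3 in treated libraries, and TEK was alike: it fell in TCCSUP from 226 and 193 to 12.7 and 13.97 CPM. The 6 fibroblast and muscle markers summed to 0.345 (253J) to 1449 CPM (TCCSUP) in control and 5.47 to 891 in treated libraries, and 4 were alike: DCN fell in TCCSUP from 271 and 284 to 24.9 and 22.8 CPM, PDGFRB there from 93.7 and 92.1 to 24.97 and 25.1, LUM there from 1075 and 974 to 214 and 183, and PDGFRA came up from 0 counts in J82 and RT112. LUM was also high in RT112, at 1363 and 1329.8 CPM in control, and its SD change was -0.54 without 253J CM-1758 replicate 3. The same RT112 libraries held 0.131 and 0.102 CPM of DCN and no count of PDGFRA or PDGFRB. Of all tested genes 8.16% were alike, against 50% of the 6 tested leukocyte, 16.7% of the 6 endothelial and 66.7% of the 6 fibroblast and muscle markers. PTPRC lost its call without TCCSUP CM-1758 replicate 1 (-1.85, edgeR adjusted p = 0.0127). These marker levels moved with the mesenchymal genes of TCCSUP, and their part in that result was not tested.

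At the limit of the call, LBH and TMSB15B were the last genes inside alike and SEMA3C and SORCS2 the first outside, while CRH and RARA-AS1 were the last inside apart and STRA6 and LINC00654 the first outside, each within 0.01 of a change of 1.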

How the data were processed

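RNA from 4 BC cell lines, each with 2 control and 2 CM-1758 libraries taken after 48 h, was sequenced from ribosome-depleted, strand-marked libraries. Per the submitters' processing notes reads were aligned to GRCh37 with HISAT2 and assembled with StringTie, and the versions are not given in the sources used here. The authors deposited 1 table of raw counts per gene symbol, not normalized. Groups came from the sample labels, and no sample column was left unused. Counts were scaled by TMM and tested in edgeR 4.0.16 with 8 group means (quasi-likelihood, filterByExpr, 21297 of 35993 symbols, 8 residual degrees of freedom), and log2 CPM were computed with a prior count of 2. P-values were adjusted by Benjamini-Hochberg over all tested genes. Limma 3.58.1 (trend, robust) was run on the same log2 CPM and was chosen after seeing the data, and DESeq2 1.42.0 as an alternative. Other alternatives were scaling, priors, filters, thinning, thresholds, measures of spread and distance, a replicate block and leaving out each line or library. Fits were tested on simulated data. Counting error limits genes near the floor of 3 counts. The chosen genes, lists and motifs were fixed with earlier results of these data known. Named were the 8 genes with the largest fall and the 8 with the largest rise of the SD among calls with close libraries, the widest change of gap per pair, genes that stayed apart, up to 4 called members per list, and CD274. Promoter sequences were taken from a RefSeq table (GRCh38.p14), a build other than that of the counts. The printed promoter coordinates are those of GRCh38.p14 and not those used for the counts. Only 67.0% of tested genes, 71.6% of the alike and 68.4% of the apart genes had an entry, so a comparison of promoter composition between these sets was void. Of the lists, 1 symbol was absent from the table and 1 was matched by its older symbol. A named member of the neuronal list is not reported here.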

Additional observations from a re-analysis of the deposited data

Results flagged for a closer look

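The effect of CM-1758 differed between the 4 lines in 7792 of 21297 genes (edgeR interaction, adjusted p under 0.01), which a test of the difference itself shows. In 175 of these genes 1 line rose and another fell, each by more than 2 on the log2 scale. Each change had an edgeR adjusted p under 0.01 in its own line, and the line that rose had counts in control. Of the 175, 142 were alike and 3 apart, against 8.16% and 0.460% of all tested genes. Opposite moves and the interaction test favour a call, so these counts only describe the 175 genes. The named genes among them are given with the adjusted p of the interaction (edgeR) and the log2 fold changes ± SE of the opposed lines.

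COL1A1 (edgeR adjusted p = 1.23e-08) changed by 2.27 ± 0.23 in J82 and -3.32 ± 0.20 in TCCSUP. MAMDC2 (edgeR adjusted p = 8.45e-10) changed by 5.41 ± 0.21 in J82 and -2.99 ± 0.19 in 253J. CDH3 (edgeR adjusted p = 1.02e-06) changed by 3.01 ± 0.34 in J82 and -2.42 ± 0.25 in TCCSUP. NLRC5 (edgeR adjusted p = 6.56e-06) changed by 2.69 ± 0.37 in RT112 and -2.10 ± 0.30 in J82. RSAD2 (edgeR adjusted p = 1.12e-05) changed by 3.85 ± 0.89 in RT112 and -5.63 ± 0.71 in TCCSUP. CCBE1 (edgeR adjusted p = 4.92e-07) changed by 7.12 ± 0.66 in RT112 and -2.01 ± 0.27 in TCCSUP, but its RT112 control libraries held only 0.0654 and 0 CPM. DCN (edgeR adjusted p = 2.59e-06) changed by 3.68 ± 0.62 in RT112, from 0.131 and 0.102 CPM, and -3.54 ± 0.28 in TCCSUP. CRACR2B (edgeR adjusted p = 3.17e-05) changed by 2.06 ± 0.33 in 253J and -2.04 ± 0.37 in J82. H2BP2 (edgeR adjusted p = 4.88e-05) changed by 2.78 ± 0.52 in TCCSUP and -2.84 ± 0.54 in J82.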

How the results depend on the processing

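The counts of alike and apart genes and the 6 pair ratios were recomputed under each alternative. Every pair ratio stayed under 1 except that of J82 and TCCSUP by the mean absolute difference, 1.03. By that measure the other ratios were 0.956 (253J and J82), 0.946 (253J and RT112), 0.894 (253J and TCCSUP), 0.927 (J82 and RT112) and 0.867 (RT112 and TCCSUP). With library size alone as the scaling they were, in that order, 0.911, 0.867, 0.840 and 0.862, then 0.979 for J82 and TCCSUP and 0.796 for RT112 and TCCSUP. With at least 10 counts in every library, where 11984 genes remained, they were 0.807, 0.868, 0.780, 0.811, 0.826 and 0.755 in the same order, and with genes over the median level 0.769, 0.792, 0.701, 0.750, 0.756 and 0.688. By 1 minus the Spearman correlation, 253J and J82 had 0.906, 253J and RT112 0.874, J82 and TCCSUP 0.989 and RT112 and TCCSUP 0.761. For 253J and RT112 the ratio was 0.837 with a prior count of 0.5, 0.856 with one of 5, 0.862 with no filter and 0.842 with replicate variance taken off. For RT112 and TCCSUP it was 0.770 with a prior count of 0.5, 0.801 with no filter and 0.769 with replicate variance taken off, and for 253J and TCCSUP 0.834 with no filter.

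Alike and apart genes numbered 431 and 27 with at least 10 counts in every library and 638 and 22 above the median level, where fewer genes were tested. They numbered 3048 and 505 at an SD change of 0.5, and 430 and 9 at one of 2. Apart genes numbered 178 at an adjusted p under 0.05, 166 with J82 left out, and 1113 by limma-trend. At an adjusted p under 0.05 and a log2 fold change above 1, the genes apart in control and treated lines were 7592 and 7706 (253J and J82), 7821 and 8425 (253J and RT112), 7505 and 7436 (253J and TCCSUP), 7549 and 7633 (J82 and RT112), 6354 and 6947 (J82 and TCCSUP) and 7435 and 7101 (RT112 and TCCSUP). By limma-trend the widened gaps were 963, 964, 689, 541, 513 and 510 in that order, of 21297 tested genes.

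With the replicate number as a block there were 1679 alike and 85 apart genes, and with the number within each line as the block 1632 and 76, and of the named genes OAS2 and IFI44L lost their calls, in the fit within each line alone. The replicates share only a number. Deviations of same-numbered libraries correlated at 0.218 (J82), 0.0427 (RT112) and 0.0173 (TCCSUP), and 253J shares 1 number only.

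Leaving out 1 library at a time, as a range, gave 1642 to 1832 alike and 78 to 100 apart genes. Pair ratios were 0.869 to 0.907 (253J and J82), 0.841 to 0.861 (253J and RT112), 0.806 to 0.831 (253J and TCCSUP), 0.825 to 0.866 (J82 and RT112), 0.901 to 0.960 (J82 and TCCSUP) and 0.772 to 0.794 (RT112 and TCCSUP). Widened gaps of J82 and RT112 numbered 115 to 266, the lowest without RT112 control replicate 1 and 129 without replicate 2. Those of J82 and TCCSUP numbered 149 to 287, the lowest without TCCSUP control replicate 2 and 172 without TCCSUP CM-1758 replicate 2. A group with a lone library was taken to vary like the others.

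With 253J left out the SD change turned to -0.20 for UNC13A and -0.36 for CRACR2B, to -1.35 for TCN1, 2.49 for MAMDC2, 2.01 for OLR1 and 0.85 for CCL20. With J82 left out it was 1.23 for ITGB6 and 0.48 for STMN3. With RT112 left out it was 0.52 for CCBE1, 0.62 for COL17A1, 1.21 for UPK1A, 0.66 for KRT4 and 0.40 for IL32. With TCCSUP left out it was 1.21 for DSC2, 0.18 for KRT81, 1.32 for MAGEC2, 0.72 for SSX1, 0.48 for PTPRC and 0.56 for DCN. Of the other values of named genes over all alternatives, 2634 kept their direction and side of the threshold, 113 lost the call and 16 gained it. The cause was not tested.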
